A study of Drosophila melanogaster with 3 samples.

Results

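The genes of the nuclear and mitochondrial RNA polymerases were examined for Myc binding in whole Drosophila melanogaster embryos. The set held 35 of 13945 protein-coding genes. Of these, 31 were chosen by a symbol that starts with Polr in the Ensembl annotation, and Brf, Bdp1, Tif-IA and Maf1 were added as polymerase I and III factors. The set comprised 7 Polr1 genes, 13 Polr2 genes, 10 Polr3 genes, the mitochondrial polymerase gene PolrMT and the 4 factors.

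Polymerase I makes the large ribosomal RNA precursor, polymerase II makes messenger RNA, and polymerase III makes transfer RNA and the small ribosomal RNA. Several small subunits are built into all of these enzymes, and a further pair is common to polymerases I and III. Myc is a growth-promoting transcription factor that binds E-box DNA together with its partner Max, and in fly larval tissues it is known to raise the output of polymerases I and III.

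Chromatin immunoprecipitation and sequencing was performed on 3 biological replicates, which form 1 group. The flies were a transgenic line, labelled dm-GFP, that expressed a dm-eGFP fusion, Myc (encoded by dm) with a green fluorescent protein tag at its C-terminal end. An anti-GFP antibody was used. The embryos were of mixed sex and aged 0 to 16 h, so the material pools many cell types and stages. More cells with Myc at a site and more Myc per cell cannot be told apart. Flies without the tagged protein were not analysed here.

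Peak lists on the dm6 genome were used. A gene was called bound when a peak of the list thresholded by irreproducible discovery rate (IDR) had its summit within 500 bp of any start of the gene. That list held 4371 peaks, and 3619 protein-coding genes were bound, a share of 26%. The signal of a peak is the score that the authors' peak caller gave it. Over the strongest promoter peak of each bound gene, the signal had a median of 197, an upper quartile of 312 and a top 10% from 495 upward. For single replicates, the signal of the matching peak (summit within 100 bp) in the relaxed list of that replicate was divided by the median over IDR peaks in the same list, giving a relative signal, a ratio. The lists hold no read counts, so depth is unknown.

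Myc was found at most polymerase gene promoters. Of the 35 genes, 26 were bound (74.3%, Wilson 95% interval 57.9 to 85.8%), against 26% of all protein-coding genes. All 7 Polr1 genes, 8 of 13 Polr2 genes, 7 of 10 Polr3 genes, PolrMT, and 3 of 4 factors were bound. Many of the peaks were strong: 18 of the 26 exceeded the median of bound genes, 13 exceeded the upper quartile and 9 were in that top 10%. Of the 26 peaks, 20 matched a peak among the 4371 strongest (the top list) of all 3 replicates, against 60.7% of bound genes. Summits lay close to the start, within 50 bp for 17 of 26, against 33% of bound genes.

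**Figure D1:**
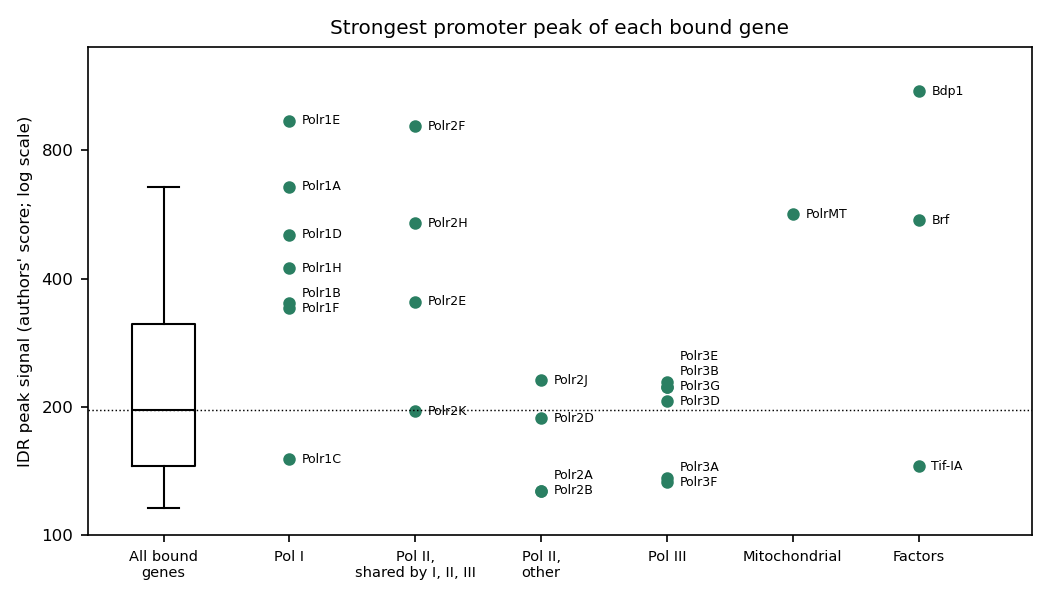
Signal of the strongest promoter IDR peak of 25 bound polymerase genes (authors' score, log axis), by polymerase. The box gives the quartiles and the median over all 3619 bound genes, its whiskers the 5th and 95th percentiles, and the dotted line that median (197); Bdp1 (1102), Polr1E (939.7) and Polr2F (912) stand highest.

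Sharing of peaks with a neighbouring gene was about as common as at bound genes in general. The peak of 16 of the 26 bound members also served another protein-coding gene, against 58% of all bound genes. In most cases the summit lay nearer to the polymerase gene. Exceptions included Polr2D, where the starts of Tgs1 and moi were nearer (12 bp against -55 bp), Polr2H and Polr2J. A peak cannot be assigned to either gene of such a pair from these lists.

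The count of bound members was repeated under other rules. With windows of 250 or 1000 bp the same 26 genes were bound, against 22.3% and 28.9% of all genes. With each peak given to its single nearest start, 23 remained (19.1% of all genes), the losses being Polr2D, Polr2H and Polr2J. Among the 2185 strongest IDR peaks it was 20 (15.2%). The top lists of replicates 1, 2 and 3 gave 27, 25 and 24 members (26.4%, 24.6% and 24.5%). When an IDR peak also had to match the top lists of both other replicates, 20, 22 and 24 members were left without replicate 1, 2 or 3 (17.5%, 19.1% and 18.9%). Polr1B was the only polymerase I gene lost in this way, without replicate 1 or without replicate 2.

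Genes of polymerase I carried some of the strongest peaks. Polr1E, a subunit that acts in initiation, had the highest signal, 939.7 (chr3R:18301555-18301896, summit at -10 bp from the start). Its relative signal was 6.22, 5.26 and 3.80 in replicates 1, 2 and 3. The gene for the largest catalytic subunit, Polr1A, followed with 657 (chr2R:14601021-14601294, summit at 47 bp, shared with Blos1), at a relative signal of 3.44, 4.59 and 2.86. All of these values exceeded the replicate medians over bound genes (1.15, 1.12 and 1.07).

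Polr1D and Polr1C code for the assembly pair shared by polymerases I and III. Their peaks were far apart in strength. Polr1D had 507 (chr2L:19133443-19133558, summit at -55 bp, shared with brat) and a relative signal of 3.67, 2.43 and 2.00. It had a second summit 202 bp away (302) and a separate peak at its other start (169). Polr1C had the weakest peak of the group, 150.5 (chr2L:4968805-4969254, summit at 26 bp, shared with Scox), with a relative signal of 0.864, 1.14 and 0.659. The ranges of these genes over the replicates did not overlap.

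The remaining members were Polr1H, the subunit for transcript cleavage (424), Polr1B, the second-largest catalytic subunit (351), and Polr1F of the stalk (341, shared with Rat1). Relative signal was lowest in replicate 3 at all 7 Polr1 genes. In proportion the gap was widest at Polr1B, with 2.29 and 2.70 in replicates 1 and 2 and 0.528 in replicate 3. In that replicate a stronger peak stood further upstream of Polr1B, at -164 bp, with a relative signal of 1.16.

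The canonical E-box CACGTG was frequent at the polymerase I genes and had a common position there. It was present within 50 bp of the summit at Polr1A, Polr1B, Polr1C and Polr1E, 4 of 7 genes, against 7.21% of all bound genes. A further copy, at Polr1H, lay just outside that window. Measured from the start of transcription, the 5 copies were centred 31.5 bp (Polr1A), 31.5 bp (Polr1B), 34.5 bp (Polr1C), 23.5 bp (Polr1E) and 33.5 bp (Polr1H) downstream. PolrMT, which transcribes the mitochondrial genome, had its copy at 31.5 bp too. These windows are shown because the word and its position recur. Each site lies in an exon, in the 5′ UTR of its gene, and is written 5′ to 3′ on the strand of the gene, from the RefSeq dm6 assembly, with the E-box in capitals. They were taken at chr2L:404302-404331 (plus strand), chr2L:4969024-4969053 (plus), chr3R:18301690-18301719 (minus), chr3R:21777799-21777828 (minus) and chr2L:1108327-1108356 (minus).
Polr1B: gattccaaacaaCACGTGcgaaggaaggca
Polr1C: tattgattccaaCACGTGcggttcaatttt
Polr1E: ttttgttttccaCACGTGcaacatttgaat
Polr1H: aatccgaaatagCACGTGcggtttttgtat
PolrMT: cttgcgccgccaCACGTGaagtgcaggaat

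A copy of CACGTG centred 1 to 50 bp downstream of the outermost start was found at 197 of 13945 protein-coding genes (1.41%), and 20 to 40 bp downstream at 125 (0.896%). All 6 members with a copy in the wider interval were among these 125. In the genome, 73.1% of the genes with a copy 1 to 50 bp downstream were bound, against 38% of the 912 genes with a copy elsewhere within 300 bp. The base after the word was C at all 5 polymerase I copies, against 40.6% of the 197 copies in that interval, and A at PolrMT. The position interval and the next base were examined after the sites had been seen. A word match is a description of sequence and no measure of binding at the site.

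The other pair of polymerase I genes, Polr1D and Polr1F, had no canonical copy within 300 bp of the outermost start. Polr1D has 2 starts, and its strongest peak lay at the inner one. Around that start, only the 50 bp on each side of the summit were searched, without a canonical copy. Polr1F held the variant CATGTG centred 22.5 bp downstream, within 50 bp of the summit, a word found at 6.49% of bound genes. Its window is shown for comparison with the canonical sites (chr2L:6907807-6907836, minus strand, variant in capitals).
Polr1F: tcagatgtaattCATGTGgtcgattcgaac

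**Figure D2:**
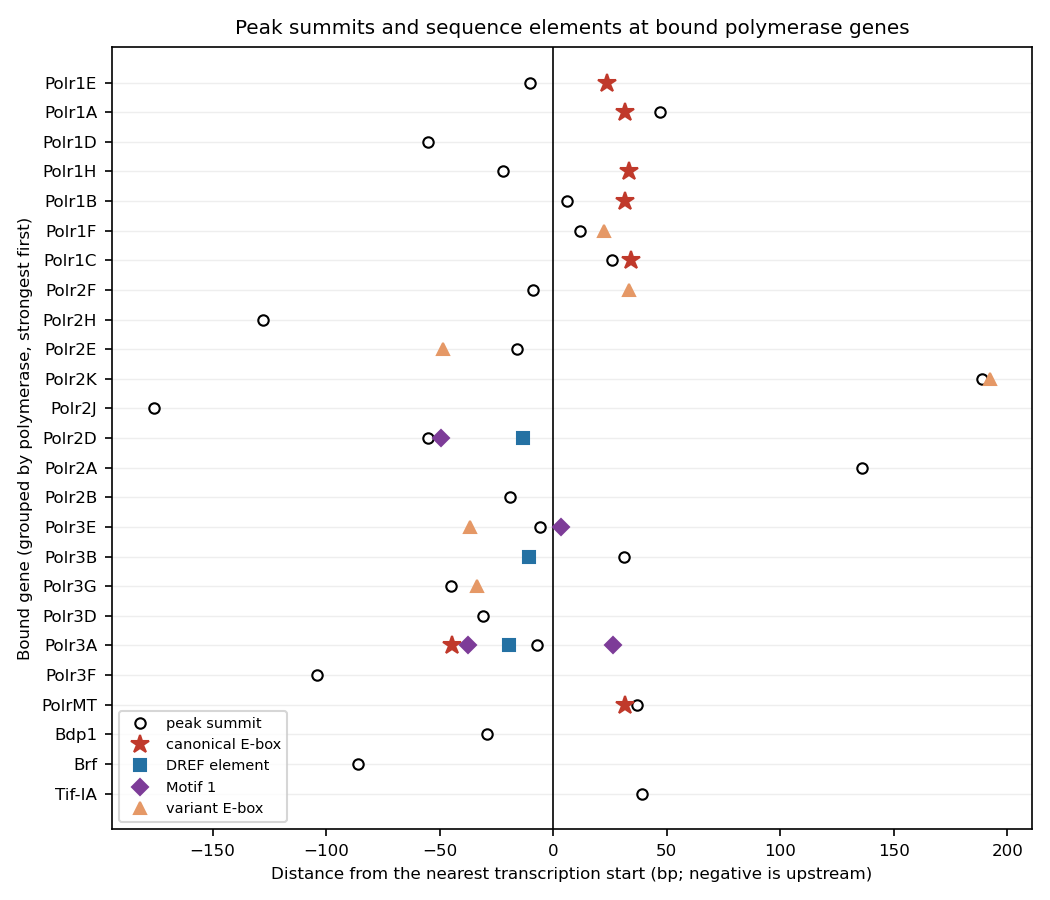
Distance in bp from the nearest transcription start (vertical line; negative is upstream) of the strongest peak summit (open circles) and of the sequence words within 50 bp of it, for 25 bound genes. Stars mark the canonical E-box, triangles its variants, squares the DREF site and diamonds Motif 1; the star of Polr1H lies outside 50 bp of its summit. The stars of 5 Polr1 genes and PolrMT fall between 23.5 and 34.5 bp downstream, and that of Polr3A at -44.5 bp.

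Polymerase II genes were divided by whether the subunit is common to the other enzymes. Polr2E, Polr2F, Polr2H, Polr2K and Polr2L code for subunits built into polymerases I, II and III, and 4 of these 5 genes were bound. Of the 8 genes for subunits or partners of polymerase II alone, 4 were bound. This split follows known subunit membership and was added with values in view.

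The strongest was Polr2F, with a signal of 912 (chr3R:5371583-5371973, summit at -9 bp, no neighbour in reach). Its relative signal was 5.18, 5.40 and 4.47 in replicates 1, 2 and 3. Polr2H followed with 539.8 (chr3L:21728675-21728973, summit at -128 bp) and a relative signal of 3.02, 2.37 and 3.29. The start of CG11247 lay nearer to that summit, at 2 bp. Polr2E had 353 (summit at -16 bp, no neighbour in reach), at 2.37, 2.12 and 1.39. Polr2K was weaker, with 195 and a summit inside the gene at 189 bp.

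No canonical E-box stood within 50 bp of the summit at any of the 8 bound Polr2 genes, against 7.21% of all bound genes. With so few genes, its absence does not set them apart from that share. Variants were present at 3 of the 4 bound common subunits. The share of bound genes with any of the variants is not given here, so this count has no direct background. The genes Polr2E and Polr2K held CATGTG near their summits, a word found at 6.49% of bound genes. The Polr2F summit lay near a CACGCG, found at 5.42%. The Polr2F copy lay 33.5 bp downstream of the start, in the interval of the polymerase I sites, and reads CGCGTG on the gene strand. It is shown for that position (chr3R:5371814-5371843, plus strand, 5′ UTR, capitals as before).
Polr2F: agaagactgcgaCGCGTGcaaaacacgccg

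The 4 bound genes specific to polymerase II had lower signals, and each shared its peak. Polr2J, an assembly subunit, had 231 (summit at -176 bp), nearer to the start of CG15141. Polr2D, of the stalk, had 188. The catalytic subunit genes stood at the bottom of the IDR range. The largest, Polr2A, had 127 (summit at 136 bp, shared with CG11699), with relative signals of 0.670 and 1.11 in replicates 1 and 2 and no matching peak in replicate 3. The second-largest, Polr2B, also had 127 (chr3R:14125547-14125996, summit at -19 bp, shared with 140up), with 1.01, 0.255 and 0.770. Further than 100 bp from the IDR summit but within the promoter window, Polr2A had a peak of 0.420 in replicate 3 and Polr2B one of 0.625 in replicate 2. The lowest signal of any IDR peak was 110.3.

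The Polr2D peak also served Ada2a, on the same strand with a start at the same distance from the summit (-55 bp). Its summit lay 12 bp downstream of the starts of Tgs1 and moi, which are on the opposite strand. Near the summit stood GGTCACAC, the core of Motif 1, and TATCGATA, the site of the replication-related element factor DREF. Each is a word of fly housekeeping promoters, and they were found near the summit at 5.75% and 8.21% of bound genes. The 60 bases before the Polr2D start are shown with both words in capitals (chr3R:18255488-18255547, minus strand), the first of them being read on the opposite strand. The first 18 bases lie in the 5′ UTR of Tgs1 and moi.
Polr2D: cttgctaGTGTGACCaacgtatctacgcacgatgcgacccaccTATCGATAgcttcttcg

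The polymerase III subunit genes named here had modest peaks. The highest of them was Polr3E, of the subcomplex for initiation and termination, with 229 (chr3L:21031594-21032043, summit at -6 bp, shared with CG10584), at 1.73, 1.25 and 0.790. Polr3B, the second-largest catalytic subunit, had 223 (chr2R:12038847-12039296, summit at 31 bp), at 1.29, 1.89 and 0.678. The values of both genes spread over a range wider than the gap between them.

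Polr3G of the initiation subcomplex (222), Polr3D of the subcomplex for initiation and termination (206, shared with mus304) and the largest catalytic subunit Polr3A (136) followed. The weakest was Polr3F, of the initiation subcomplex, with 133 (chr3R:22367038-22367487, summit at -104 bp, shared with PyK), at 0.940, 0.619 and 0.751. Replicate 3 was lowest at 6 of the 7 bound Polr3 genes. Over all 25 members measured in every replicate it was lowest at 19, against 47.3% of bound genes measured in every replicate. The part of replicate 3 in these levels was not tested.

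Polr3A was the only bound Polr3 gene with CACGTG near the summit, and its copy lay upstream of the start, at -44.5 bp. GGTCACAC followed it directly, without overlap, and TATCGATA stood between that word and the start. A second GGTCACAC was centred 26.5 bp downstream of the start, also within 50 bp of the summit and outside the stretch shown. The 60 bases before the start are shown for this arrangement (chrX:15762896-15762955, plus strand, outside annotated exons, words in capitals). Of the other Polr3 genes, Polr3B held TATCGATA, Polr3E held GGTCACAC and CAGCTG, and Polr3G held CAGCTG, a word found at 9.28% of bound genes.
Polr3A: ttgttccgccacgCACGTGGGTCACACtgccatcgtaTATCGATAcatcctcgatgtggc

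Among the 3 bound factors of the set, Bdp1 and Brf of polymerase III had stronger peaks than Tif-IA of polymerase I. This order holds for these genes only. In the wider lists given further on, 3 of 3 matched polymerase I initiation genes were bound, out of 7 listed names. Of the 5 matched genes for polymerase III initiation and small nuclear RNA promoters, out of 8 listed names, 1 was bound. The share among all protein-coding genes was 26%. All names that matched no gene fell in these lists, so they are no basis for setting polymerase I against polymerase III. Bdp1 and Brf are subunits of TFIIIB, which brings polymerase III to its genes. Bdp1 had the highest signal of the whole set, 1102 (chr2L:13373667-13374272, summit at -29 bp), in a divergent pair with CG6565, and its relative signal was 6.71, 5.23 and 5.97. Brf had 549 (chr3R:17391305-17391603, summit at -86 bp, shared with sds22), at 3.15, 2.31 and 3.44. A further IDR peak of 189.6 lay inside the long Brf gene, at the start of the nested gene lute.

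Tif-IA, which brings polymerase I to ribosomal DNA, had a weak peak of 145 (chr2L:22249690-22250139, summit at 39 bp), at 1.04, 0.784 and 0.557. None of the 3 bound factors held any of the 6 words within 50 bp of the summit, which is too few genes to compare with a share. Of all 26 bound members, 14 held at least 1 of the words, against 34.7% of bound genes. PolrMT had 567 (chr2L:1108197-1108475, summit at 37 bp, shared with CG14339), at 3.48, 3.03 and 2.57. A second summit stood 201 to 212 bp from the strongest at Polr1D, Polr1F, PolrMT and Bdp1. Of all bound genes, 16.1% had more than 1 promoter peak.

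**Figure D3:**
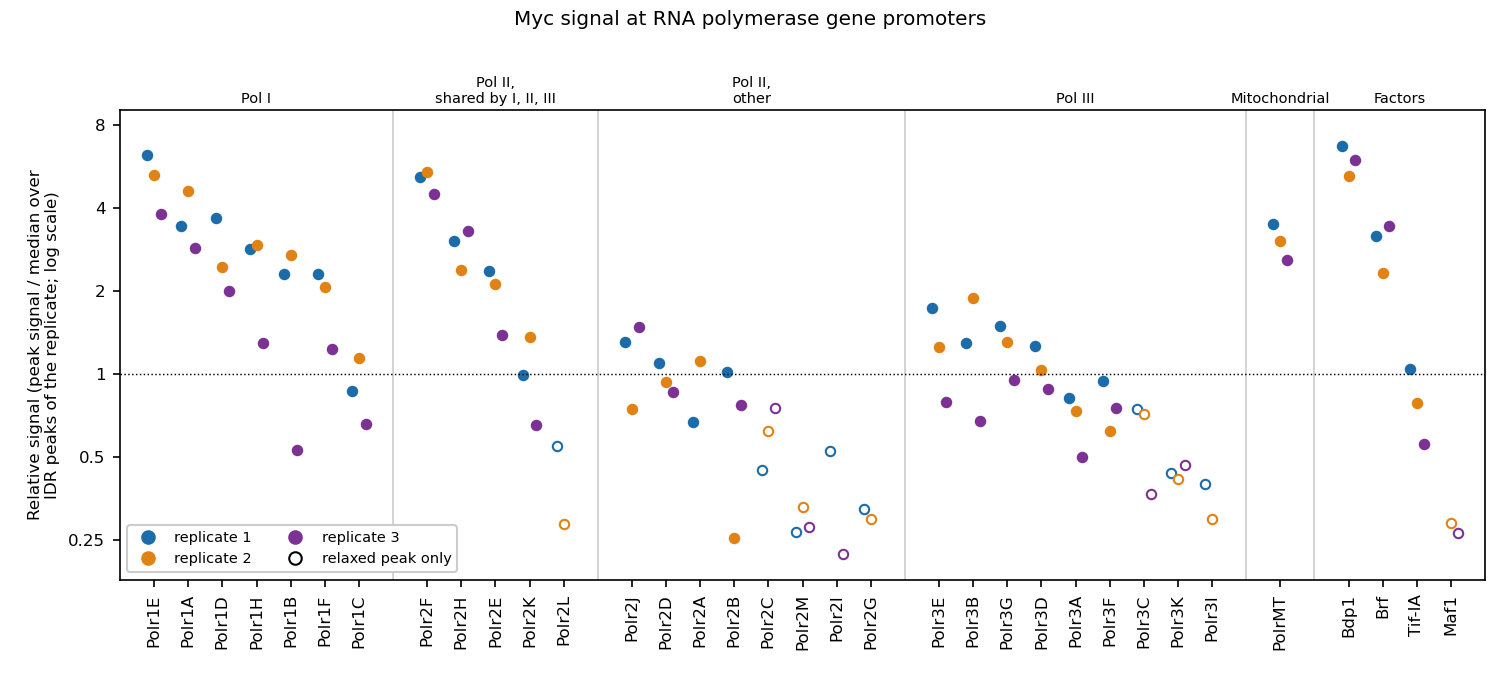
Relative signal of the promoter peak of 34 of the genes in replicates 1, 2 and 3 (peak signal divided by the replicate median over IDR peaks; log axis), by polymerase. Filled points are peaks matched to an IDR peak and open points are relaxed peaks of genes without one; Bdp1, Polr1E and Polr2F lie above 3.5 in all replicates, and the open points lie below 0.8.

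The genes without an IDR peak were Polr2C, Polr2G, Polr2I, Polr2L, Polr2M, Polr3C, Polr3I, Polr3K and Maf1. Most had a weaker peak in the relaxed lists. Having no IDR summit to match, they are given by their strongest relaxed peak within 500 bp of a start, unlike the bound genes. In the pooled relaxed list 34 of 35 members had a promoter peak, against 54% of protein-coding genes, and 30 had one in the relaxed lists of all 3 replicates, against 42.4%. The exceptions in the latter count were Polr2G, Polr2I, Polr2L, Polr3I and Maf1.

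Nearest to the threshold were Polr3C, of the initiation subcomplex (pooled signal 105.5), and Polr2C, an assembly subunit (92.5). Polr3C had a relative signal of 0.748, 0.716 and 0.366 in replicates 1, 2 and 3. Polr2C had 0.449, 0.620 and 0.750, but its summits in the 3 lists lay 546 bp apart. These levels overlapped those of the weakest bound genes, such as Polr2B and Polr3F.

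Polr3K, the cleavage subunit of polymerase III, had steady low values of 0.438, 0.417 and 0.467. Polr2M, whose mammalian counterpart is a protein associated with polymerase II, had 0.268, 0.330 and 0.279, with summits up to 363 bp apart. The common subunit gene Polr2L had 0.548 and 0.286 in replicates 1 and 2 and no peak in replicate 3. All of these lay below the replicate median over IDR peaks, which is 1 by construction.

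Polr2G, of the polymerase II stalk, had 0.323 and 0.297 in replicates 1 and 2 and none in replicate 3. Polr3I, of the polymerase III stalk, had 0.399 and 0.298 from summits 319 bp apart, again with none in replicate 3. Polr2I, a subunit linked to start selection, had 0.525 in replicate 1 and 0.223 in replicate 3. The Polr2I summits lay 773 bp apart, so these values are not of the same peak. Maf1, the repressor of polymerase III, was the only member without a pooled relaxed peak. No promoter peak was listed for it in the pooled list or in replicate 1, and the others gave 0.289 and 0.265.

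The 6 words were also counted in the promoters of these genes, from 250 bp before to 50 bp after the outermost start. CACGTG was found at 7 of the 26 bound members and at 0 of the 9 others, against 4.2% of all protein-coding genes. GGTCACAC was found at 4 of the 26 and at 5 of the 9 (Polr2G, Polr2I, Polr2L, Polr3I and Polr3K), against 7.7%. For TATCGATA the counts were 3 and 1 (9.36% of all genes), for CACGCG 2 and 0 (6.12%). For CATGTG they were 4 and 0 (9.7%), and for CAGCTG 7 and 1 (17.7%). Outside that stretch, Polr2G had a CACGTG at 99.5 bp and the nearest copy at Polr3K was 131.5 bp downstream. Counts this small were not tested.

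The classes were then compared within each replicate by the median relative signal of their bound members. For the Polr1 genes the median was 2.83, 2.70 and 1.29 in replicates 1, 2 and 3, a mean of 2.27 ± 0.856 (SD, n = 3). The Polr2 genes had 1.20, 1.23 and 1.39, a mean of 1.27 ± 0.0978 (SD, n = 3). The Polr3 genes had 1.29, 1.25 and 0.790, a mean of 1.11 ± 0.279 (SD, n = 3). Polymerase I genes were higher than both other classes in replicates 1 and 2 but not above polymerase II genes in replicate 3. The polymerase II median of replicate 3 rests on 7 of the 8 genes, since Polr2A had no matching peak.

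Polymerase I exceeded polymerase II by 1.63 and 1.46 in replicates 1 and 2 and by -0.0968 in replicate 3, a mean of 1.00 ± 0.953 (SD, n = 3; exact sign-flip permutation test, two-sided, p = 0.5, adjusted p = 0.75 over 3 comparisons). The value in replicate 3 turned to 0.164 with summits matched within 250 bp, to 0.472 over genes with a relaxed peak in all replicates and to 0.425 without common subunits (means 1.09, 1.27 and 1.43, exact p = 0.25 each). Without replicate 3 the mean was 1.55, and with genes that share no peak it was 0.392, over 3 genes in each class. The polymerase II side of that last value holds only the common subunits Polr2E, Polr2F and Polr2K. For polymerase III minus polymerase II the differences were 0.0910, 0.0147 and -0.596, a mean of -0.163 ± 0.377 (SD, n = 3; same exact test, p = 1, adjusted p = 1). With 3 replicates this test cannot give a p below 0.25. Neither difference could therefore pass it, whatever its size. The test covers the spread between replicates of the same genes and not the spread between genes. Each mean difference was close to or below the SD between replicates.

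Within polymerase II the common subunits were higher in every replicate. Their bound genes had medians of 2.69, 2.25 and 2.34, a mean of 2.43 ± 0.237 (SD, n = 3), against 1.06, 0.840 and 0.863, a mean of 0.920 ± 0.118 (SD, n = 3), for the other subunits. The difference was 1.64, 1.41 and 1.47, a mean of 1.51 ± 0.120 (SD, n = 3; exact sign-flip permutation test, two-sided, p = 0.25, the smallest possible, adjusted p = 0.75). Each side rests on 4 genes, except that 3 other subunits were measured in replicate 3, where Polr2A had no matching peak. Because the split was made with these values in view, the test is no independent support for it. Its SD covers the same few genes measured again in each replicate and not the spread between genes. The groups of genes overlapped, since Polr2K (195) had less signal than Polr2J (231).

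**Figure D4:**
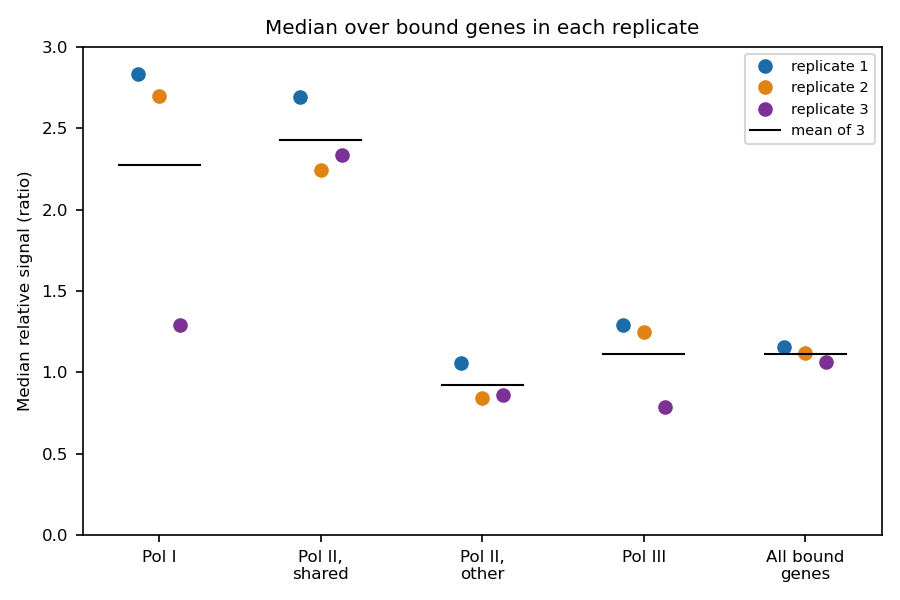
Median relative signal (ratio) over the bound genes of each class in replicates 1, 2 and 3, with the mean of the 3 as a line; the last column gives the same over all 3619 bound genes. The Polr1 median falls from 2.83 and 2.70 to 1.29 in replicate 3, while the common Polr2 subunits stay between 2.25 and 2.69 and the other Polr2 genes between 0.840 and 1.06.

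Counted by enzyme, with every common subunit included, 11 of 12 genes for polymerase I were bound, 8 of 13 for polymerase II and 13 of 17 for polymerase III. Median signals were 424, 213 and 223. Polr2L was the sole unbound gene of the polymerase I enzyme. These sets share genes, so their counts are not independent.

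Genes that work with the polymerases were counted in the same way, from lists put together with earlier results of these data known. Of the 7 listed polymerase I initiation genes, 3 matched the annotation and all were bound, with signals from 112 to 433. The strongest were TAF1C-like (433, shared with MESK2) and TAF1B (124, shared with Invadolysin), relatives of human selectivity factor subunits. Of 8 listed genes for polymerase III initiation and small nuclear RNA promoters, 5 matched and 1 was bound, Pbp49 (181, shared with CG42516 and Pabp2).

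For polymerase II, 12 of 18 initiation genes were bound, led by the TFIIH subunit genes Ssl1 (1388, shared with Chro) and mrn (389, shared with CG12301). The pausing and elongation list had 11 of 15 bound, led by Nelf-E (1519, shared with RpL14) and Nelf-A (423, shared with CG3337), subunits of the negative elongation factor. Of 6 mitochondrial transcription genes 4 were bound, led by mTerf5 (390.3, shared with Non3) and mTerf3 (142, shared with CG5104), of the termination factor family. The share bound among all protein-coding genes was 26%, as above. Each of these leading genes shared its peak with a neighbour.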

How the data were processed

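Peak lists in narrowPeak layout, per the deposited file listing, came from each replicate's alignments (or from all 3) with a control file. They were kept at a relaxed threshold, and the IDR list was derived from them. The signal values are scores from the authors' peak caller, as deposited. What aligner, caller, IDR threshold or score scaling was used is not given in the sources used here. Relaxed lists of replicates 1, 2 and 3 held 29853, 26058 and 25842 peaks, the pooled list 24667. The dm3 lists were not used here.

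Starts came from Ensembl release 115 (BDGP6.54) and sequence from the RefSeq dm6 assembly; the arms matched. A peak served every gene with a start in reach. The 6 words were searched on both strands. They were the canonical E-box CACGTG, a variant E-box with the letters CACGCG, a further variant box written as CATGTG, the last variant box written as CAGCTG, the DREF site TATCGATA and the Motif 1 core GGTCACAC. Comparisons of classes used exact sign-flip tests over replicates, adjusted by the Benjamini-Hochberg method. Gene groups were described beside all genes, with no set test. Wilson intervals cover counting error only. Scripts (Python 3.11.15, NumPy 2.4.6) were tested on simulated data.

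The members and lists were chosen with earlier results of these data known. Replicate values are given for the 3 strongest and the weakest bound member of each polymerase, the factors, PolrMT and the unbound members, and signals for the 2 strongest bound genes of each other list; of 54 listed names, 7 matched no gene. A gene that this rule names is not reported here, singly or in the figures, and remains in the counts and medians. The comparison of common with other polymerase II subunits was chosen after seeing the data. Alternatives were windows of 250 and 1000 bp, the stronger part of the IDR list, the single nearest start, the relaxed pooled list, other summit matches and word windows, another divisor, peaks serving 1 gene only, and leaving out each replicate.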

Additional observations from a re-analysis of the deposited data

How the results depend on the processing

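Of 59 alternative values, 53 kept their direction or, for counts, stayed within 1.5 times the count reported. This rule is lenient. With 35, 7 and 10 genes in the sets, bound counts for all members, polymerase I and polymerase III could not rise past that limit. The count of all members thus stayed inside it at 34 in the relaxed pooled list. For differences the rule ignores a change in size. The count of bound polymerase II genes went from 8 to 5 with each peak given to its single nearest start and to 13 in the relaxed pooled list, where 19.1% and 54% of all genes were bound. CACGTG was counted at 3 members instead of 6 within 25 bp of the summit, and at 8 within 100 bp. The shares of all bound genes in these windows are not given here, so these counts have no direct background. The difference of polymerase III from polymerase II turned from -0.163 to 0.0117 over genes with a relaxed peak in all replicates, to 0.191 without common subunits and to 0.0529 without replicate 3; the cause was not tested. With genes that share no peak it was -0.866, but only common subunits were then left on the polymerase II side. Leaving out each replicate gave -0.291 to 0.0529 for that difference, 0.684 to 1.55 for polymerase I minus polymerase II, and 1.44 to 1.56 for common minus other polymerase II subunits. Bound counts then ran from 20 to 24 for all members, 6 to 7 for polymerase I, 6 to 7 for polymerase II and 5 to 6 for polymerase III. The last comparison of subunits could not be made with genes that share no peak, since every other polymerase II subunit shares its peak. Division by the median of the whole relaxed lists gave 3.20 for polymerase I minus polymerase II and -0.585 for polymerase III minus polymerase II, on another scale. No paired analysis was possible because the study has 1 group, so no samples pair between groups; the class differences were taken within replicates. Depth is unknown, so an absent peak may be a weak one.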

Other observations

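The polymerase genes were spread over the chromosome arms. Arm 3R held 12 of them, of which 7 were bound, and 3L held 5, all bound. Arm 2L held 9 with 8 bound, 2R held 6 with 4 bound, and X held 3 with 2 bound. On 3L, 689 of all 2739 protein-coding genes were bound, and on 3R 939 of 3421. The counts for all genes were 660 of 2657 on 2L, 738 of 2852 on 2R and 581 of 2196 on X.

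Members with CACGTG near the summit had a median signal of 459 (6 genes, from 136 to 939.7), and those without it a median of 229.8 (20 genes, from 127 to 1102). Over all promoter IDR peaks the medians were 351 with the word and 181 without it, a gap of like proportion. The ranges overlapped. The strongest member, Bdp1, and the strongest polymerase II gene, Polr2F, had no canonical copy within 300 bp of the start.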
